A study of Mus musculus with 8 samples.

Results

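Enzymes that place or remove histone methyl groups, and enzymes that remove histone acetyl groups, were followed at the level of their mRNAs on polysomes, the ribosome clusters of mRNAs under translation. The members were taken by name: every probe set whose single annotated gene symbol began with Kdm, Kmt, Setd, Hdac, Sirt, Prmt, Ehmt or Suv39h followed by a digit, or was Setdb1 or Setdb2. This gave 65 genes of the 18193 that the array names by a single symbol, read by 154 of its 45101 probe sets. Of these, 29 genes (71 probe sets) are writers, the methyltransferases, and 36 genes (83 probe sets) are erasers, the demethylases and deacetylases. The rule reads symbols and no measured value. The names writer and eraser follow gene families, and not every member is known for acting on histones.

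Polysomal mRNA came from mouse eggs in 4 batches of metaphase II (MII) oocytes, arrested in the second meiotic division, and from 4 batches of one-cell embryos kept in α-amanitin, which blocks RNA polymerase II. Each array held the pooled RNA of a batch, which the design text puts at 160 to 500 oocytes or embryos, and both groups went through 2 rounds of amplification. Strain, age, drug dose and hours after fertilization were not stated in the labels used here. Stage and α-amanitin changed together and cannot be told apart, nor can the amount of an mRNA and its loading onto ribosomes, nor fewer contributing cells and less RNA per cell.

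Writers of histone methylation use S-adenosylmethionine to modify lysines, through a SET domain in most families, or arginines, in the Prmt family. Marks on lysine 4 of histone H3 (H3K4) are known from active promoters, H3K36 marks from transcribed gene bodies, H3K9 marks from heterochromatin and H3K27 marks from Polycomb repression. The Kdm enzymes remove methyl groups by an amine oxidase reaction (Kdm1) or with a JmjC domain. Hdac enzymes remove acetyl groups with zinc, and sirtuins with NAD. The egg transcribes nothing at metaphase II, so enzymes newly made soon after fertilization come from stored maternal mRNA. Enzyme already present as protein was not measured here. The parental genomes are known to carry different histone marks in the one-cell embryo.

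The arrays differed in quality, and one-cell array 1 and MII array 2 each stood apart in some measures. Correlations of log2 signal were 0.928 to 0.958 among MII arrays and 0.763 to 0.944 among one-cell arrays. The median signal of one-cell array 1 was 71.8, while the other 7 arrays lay between 26.9 and 37.9. Its hybridization controls averaged 14879 (geometric mean), while those of the others lay between 857 and 3718. The 3′ probe set for 18S ribosomal RNA was brighter on all 4 one-cell arrays (10688 to 66754) than on the MII arrays (1583 to 2971). On MII array 2 the ratio of 3′ to 5′ signal for Actb, a sign of RNA integrity and amplification, was 46.3, against 4.28 to 11.04 on the other 7 arrays. The part of these differences in the results was not tested. All 16 listed oocyte markers lay above the array median on at least 3 arrays of each group, with a summed signal of 112558 to 156624 in MII oocytes and 81355 to 135624 in one-cell embryos. Of these markers 5 were higher and 4 lower. Among the higher were Izumo1r, with a change of 4.00 ± 0.32, and Tle6 with 1.20 ± 0.29 (limma adjusted p = 3.01e-07 and 0.00458). Among the lower were Mos, the kinase that holds the metaphase arrest, with -5.57 ± 0.31, and Gdf9 with -2.17 ± 0.43 (limma adjusted p = 1.52e-08 and 0.00096). Of 13 cumulus and granulosa markers on the array, 8 were kept and 1, Cyp11a1, passed as higher. Their summed signal was 581 to 757 on MII arrays and 479 to 1731 on one-cell arrays, highest on one-cell array 1, while Amh lay at or under the median of every array. Of 8 sperm markers, Prm2 passed as higher and Akap4 as lower, and Tnp1, Tnp2 and Smcp were at or under the median of every array. Of 4 blood cell markers on the array none passed, and their sum was 130 to 176 and 81.5 to 254. The part of these cell types in the results was not tested.

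Writers and erasers both held rises and falls, and the strongest changes were Setd4 upward and Prmt1, Sirt1, Kdm8 and Sirt4 downward. Of the 65 genes, 54 had at least 1 probe set kept by the filter on dim signal, which asked for a signal over the median of its array on 4 or more of the 8. Each such gene is read by its brightest kept probe set, and 9 genes passed as higher and 9 as lower in one-cell embryos (limma, Benjamini-Hochberg over all 23336 kept probe sets, adjusted p under 0.05). Over all 12359 genes measured, 20.6% were higher and 14.8% lower, so the members' 16.7% each way is close to the background. The groups did not overlap in 17 of the 54, or 31.5%, against 35.7% of all genes. Changes are given as embryo minus oocyte on the log2(signal + 10) scale, ± the limma SE, a scale on which dim mRNAs change less than they would otherwise. Without MII array 1 there were 4 higher and 7 lower members, and without MII array 3 there were 5 and 7. Leaving out one-cell array 1 gave 9 higher and 7 lower, and leaving out one-cell arrays 1 and 4 together gave 6 and 5.

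Among 23 measured writers, 3 were higher (Setd4, Setd6 and Setdb1), 2 were lower (Prmt1 and Suv39h2) and 18 did not pass. Among 31 measured erasers, 6 were higher (Hdac6, Kdm2b, Kdm7a, Sirt5, Sirt6 and Sirt7), 7 were lower (Hdac2, Kdm1b, Kdm5c, Kdm6a, Kdm8, Sirt1 and Sirt4) and 18 did not pass. A change in either direction was thus called for 21.7% of writers and 41.9% of erasers, against 35.3% of all genes. These are shares of gene families, and the called Setd6, Hdac6, Sirt4 and Sirt5 are better known for targets other than histones. The median change was -0.09 for writers and 0.21 for erasers, beside 0.17 for all genes. No test compares the families with each other or with other genes. The scaling sets how many members count as higher. After quantile normalization 6 of the 54 measured members were higher and 9 lower, and with each array centred on its median 2 were higher and 7 lower. Of all 12359 genes, 2540 were higher and 1828 lower as deposited. Those counts were 1942 and 2048 after quantile normalization, and 1636 and 1646 with centring. Over all probe sets, the share of calls that were higher was 60.2% as deposited, 48.7% with quantile normalization and 50.8% with centring, as the median change of all genes moved from 0.17 to -0.10 and -0.15. Relative to all genes, writers lay at -0.26 as deposited and -0.13 with quantile normalization, and erasers at 0.05 and 0.04. Centring shifts every gene by the same amount, so it cannot change these relative values. With array quality weights writers lay at -0.14 and erasers at -0.02. With the filter at the 75th percentile they lay at -0.24 and -0.11.

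**Figure D1:**
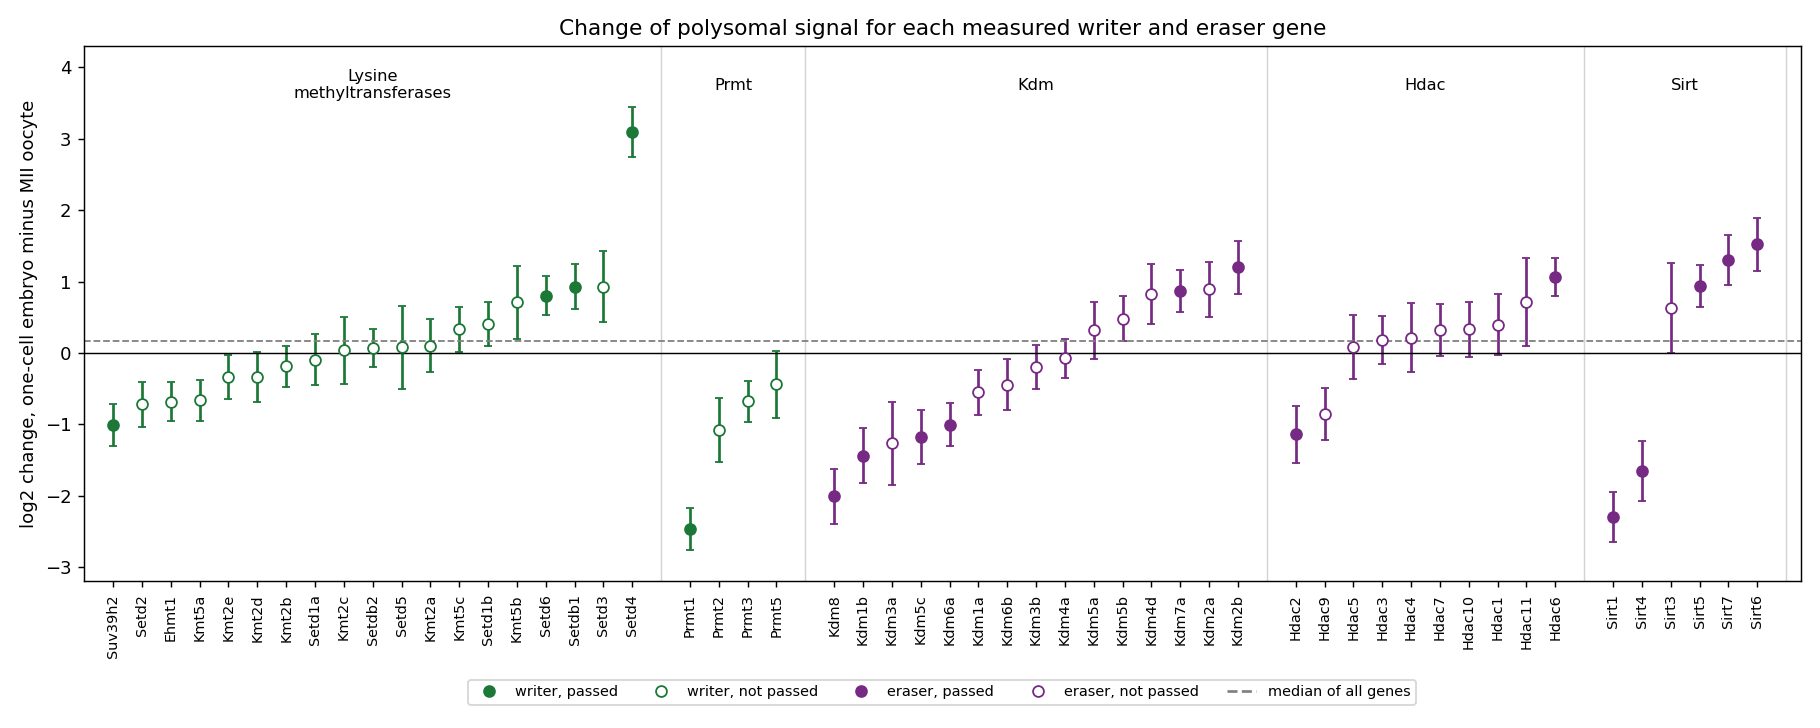
The log2 change between one-cell embryos and MII oocytes is plotted for the 54 measured genes, grouped by enzyme family and ordered within each. Points are the brightest kept probe set, bars are the limma SE (4 arrays per group), green marks writers and purple erasers, filled points passed the test, and the dashed line is the median of all genes at 0.17; Setd4 lies highest at 3.09 and Prmt1 lowest at -2.46.

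Setd4, a SET domain methyltransferase, had the largest rise. Its signals on arrays 1 to 4 were 450.1, 885, 627 and 828 in MII oocytes and 8736, 6120.3, 3192 and 6773 in one-cell embryos. The lowest one-cell value, that of array 3, was still well above every MII value. The 4 one-cell arrays ranked here in the same order as by their hybridization controls and 3′ 18S signal. Any link between these was not tested. The mean rose 8.89-fold, from 698 ± 199 to 6205 ± 2296 (SD, n = 4), a log2 change of 3.09 ± 0.35 (limma adjusted p = 6.98e-06). A second probe set of Setd4 also rose, from 353, 431, 347 and 499.7 to 728, 3139.6, 2203 and 1619, by 2.04 ± 0.38 (adjusted p = 0.000538). Its one-cell array 1 was the lowest of the 4, while on the brightest probe set array 1 was the highest. The third kept probe set of Setd4 changed by 0.63 ± 0.38 and did not pass (adjusted p = 0.24), and the average over all 3 changed by 1.92 ± 0.24, adjusted p = 4.31e-05.

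Enzymes that methylate H3K9, the mark of heterochromatin and silenced repeats, had 4 measured genes. Setdb1 passed as higher, Suv39h2 passed as lower and Setdb2 and Ehmt1 did not pass. Over all genes 35.3% passed, and 4 genes are too few to read as a share. Setdb1, which is known to silence retroelements, had signals of 556, 512, 558 and 404 in MII oocytes and 639.8, 1248, 1519.7 and 709 in one-cell embryos. The groups did not overlap, and one-cell arrays 1 and 4 lay closest to the oocytes. It rose by 0.92 ± 0.31 (adjusted p = 0.0329). A dimmer probe set of Setdb1 went from 9.3, 20.1, 11.8 and 12.6 to 129.9, 64.7, 165 and 97.3, a change of 2.35 ± 0.41 (adjusted p = 0.000314). On the MII arrays that probe set did not exceed the array median and was kept through the embryo arrays alone, so its oocyte level and the size of its change are poorly set, and its call is no independent support. With both probe sets averaged the change was 1.64 ± 0.25, adjusted p = 0.000191. That average takes in the dimmer probe set, so it is no independent support either. The call of Setdb1 was lost without MII array 1, MII array 2, MII array 3, MII array 4, one-cell array 2 or one-cell array 3 (adjusted p = 0.0535, 0.0578, 0.058, 0.0995, 0.0927 and 0.107, changes of 0.71 to 0.97). The test was also missed with each array centred on its median (0.61 ± 0.49, adjusted p = 0.404) and without a variance trend (adjusted p = 0.0616). Setdb2, its paralog, had signals of 368, 342, 334 and 278 and 266, 408, 405 and 322. The groups overlapped almost fully, and the change was 0.07 ± 0.27 (adjusted p = 0.886). Whether Setdb1 and Setdb2 differ in their change was not tested.

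Suv39h2, which trimethylates H3K9 at pericentric heterochromatin, moved with the probe set. On its brightest one, signals were 559, 490.3, 562 and 418 in MII oocytes and 161, 223, 371 and 272 in one-cell embryos. Every one-cell array lay below every MII array, and the signal fell, a log2 change of -1.005 ± 0.29 (adjusted p = 0.0146). The other 2 probe sets of Suv39h2 did not pass, with changes of 0.68 ± 0.36 (adjusted p = 0.165) and 0.28 ± 0.36 (adjusted p = 0.616). The call of Suv39h2 was lost without both one-cell arrays 1 and 4 (adjusted p = 0.0653) and with its kept probe sets averaged (-0.01 ± 0.27, adjusted p = 0.975). The direction of Suv39h2 is therefore not settled. Suv39h1, its paralog, was not analysed here.

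Ehmt1 (GLP), which dimethylates H3K9 together with G9a, had signals of 958, 1011, 1065 and 1349 in MII oocytes and 534, 856, 654 and 683 in one-cell embryos. All 4 one-cell values lay below all 4 MII values, yet the change of -0.68 ± 0.27 missed the threshold (adjusted p = 0.0656). It passed when the filter was raised to the 75th percentile (adjusted p = 0.0477) and with 1 averaged value per gene (adjusted p = 0.0322). Its partner Ehmt2 (G9a) had both probe sets under the filter, with signals of 16.9, 5.9, 4.7 and 2.5 in MII oocytes and 10.9, 5.0, 5.4 and 20.9 in one-cell embryos on the first. Those values are near the bottom of the table and say little about Ehmt2.

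The 7 measured genes listed here as H3K4 methyltransferases were grouped by name. That does not show that each of them, Kmt2e included, has the activity. None of the 7 passed by its brightest probe set, where 35.3% of all genes passed. Their changes lay between -0.34 (Kmt2e) and 0.41 (Setd1b), and Setd7 was not kept. Kmt2c, one of the pair of enzymes known for H3K4 monomethylation at enhancers, is the case where this hides most. Its brightest probe set had signals of 4291, 12235, 3904 and 5668 and 6061, 4898, 3246 and 13369, with wide spread in both groups and a change of 0.04 ± 0.47 (adjusted p = 0.967). The next one had 4671, 6252, 3952 and 3669 in MII oocytes and 915, 2171, 1819.7 and 3170.2 in one-cell embryos, with no overlap. It fell, with a change of -1.30 ± 0.37 (adjusted p = 0.0136), and the other 2 changed by -1.39 ± 0.34 (adjusted p = 0.00499) and -0.97 ± 0.28 (adjusted p = 0.0146). So 3 of the 4 kept probe sets of Kmt2c fell, and their average over all 4 changed by -0.90 ± 0.29, adjusted p = 0.0264. Kmt2d, the other enzyme of the pair, changed by -0.33 ± 0.35 (adjusted p = 0.532) on the brightest probe set and by 0.73 ± 0.61 (adjusted p = 0.414) on a dim one. Kmt2b, which is known for H3K4 trimethylation in the growing oocyte, changed by -0.19 ± 0.29 (adjusted p = 0.68). Kmt2a changed by 0.10 ± 0.37 and Setd1a by -0.09 ± 0.36. The brightest probe set of Setd1b changed by 0.41 ± 0.31 (adjusted p = 0.356), while its other one rose from 72.4, 82.4, 69.5 and 96.6 to 142, 182, 159.7 and 205, a change of 1.01 ± 0.29 (adjusted p = 0.0124). Averaged over both, Setd1b changed by 0.71 ± 0.24, adjusted p = 0.0355.

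The 4 members that methylate H3K36 or H4K20 (Setd2, Kmt5a, Kmt5b and Kmt5c) did not pass. They are too few to set beside the 35.3% of all genes that passed. Setd2, which trimethylates H3K36 in transcribed genes, had signals of 993, 384, 783 and 592 in MII oocytes and 294, 483, 431 and 378 in one-cell embryos, and MII array 2 lay within the embryo range. Its change was -0.72 ± 0.32 (adjusted p = 0.0962). Kmt5a, which places the first methyl group on H4K20, changed by -0.67 ± 0.29 (adjusted p = 0.0924) on its brightest probe set and by -0.01 ± 0.29 on the other. Kmt5b and Kmt5c, which add further methyl groups there, changed by 0.71 ± 0.51 and 0.33 ± 0.31. Of the remaining SET domain genes, Setd6, known for methylating the RelA subunit of NF-κB, had signals of 446, 544, 365 and 599.7 in MII oocytes and 806, 796, 777 and 1025 in one-cell embryos. The groups did not overlap, and the signal rose by 0.80 ± 0.27 (adjusted p = 0.0309). The call of Setd6 was lost without MII array 1, MII array 3 or one-cell array 4 (adjusted p = 0.0747, 0.12 and 0.0954, changes of 0.68 to 0.77). Setd6 also missed the threshold with each array centred on its median (0.49 ± 0.38, adjusted p = 0.385), without a variance trend (adjusted p = 0.0578), without both one-cell arrays 1 and 4 (adjusted p = 0.0889) and with its kept probe sets averaged (adjusted p = 0.0612). Setd3, the actin histidine methyltransferase, changed by 0.93 ± 0.50 (adjusted p = 0.183) with 1 oocyte array, array 2, far below the other 7, and Setd5 by 0.08 ± 0.58 (adjusted p = 0.942).

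Arginine methyltransferases were represented by 4 measured genes, and as deposited all 4 changes were negative, from -2.46 to -0.44, of which 1 passed. Among all genes 35.3% passed, and 4 genes are too few to read as a share. Prmt1, the enzyme that makes most asymmetric dimethylarginine in mammalian cells, had signals of 842, 987, 744 and 507 in MII oocytes and 95.7, 118, 146 and 161 in one-cell embryos. Even the highest one-cell value lay far below the lowest oocyte value. The mean was 5.92-fold lower in embryos, 130.2 ± 29.3 against 770.0 ± 202 (SD, n = 4), and the log2 change was -2.46 ± 0.29 (adjusted p = 1.05e-05). The call held in all 20 alternative settings. Prmt2 had signals of 3625, 4583, 3482 and 4547 and 602, 3639.5, 2491 and 2376 on its brightest probe set. One-cell array 1 lay far below the others, while array 2 was within the oocyte range. The change of -1.08 ± 0.45 missed the threshold (adjusted p = 0.0772) with all arrays and passed without one-cell array 2 (-1.39 ± 0.45, adjusted p = 0.0273) and with the replicate number as a block (adjusted p = 0.0412). The other probe set of Prmt2 also fell, with a change of -0.92 ± 0.33 (adjusted p = 0.0451), with groups that did not overlap. Prmt3, known for methylating a ribosomal protein, had signals of 569.5, 536, 613 and 526 and 226, 504, 352 and 359, all lower in embryos, and missed the threshold with -0.68 ± 0.28 (adjusted p = 0.0824). Prmt5, the main source of symmetric dimethylarginine, had signals of 115, 137, 109 and 132 in MII oocytes. In one-cell embryos arrays 2 and 4, at 109.7 and 118, lay inside the oocyte range, array 1, at 18.8, far below it and array 3 above it. The change was -0.44 ± 0.47 (adjusted p = 0.538). Prmt6, Prmt7, Prmt8 and Prmt9 were not kept.

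**Figure D2:**
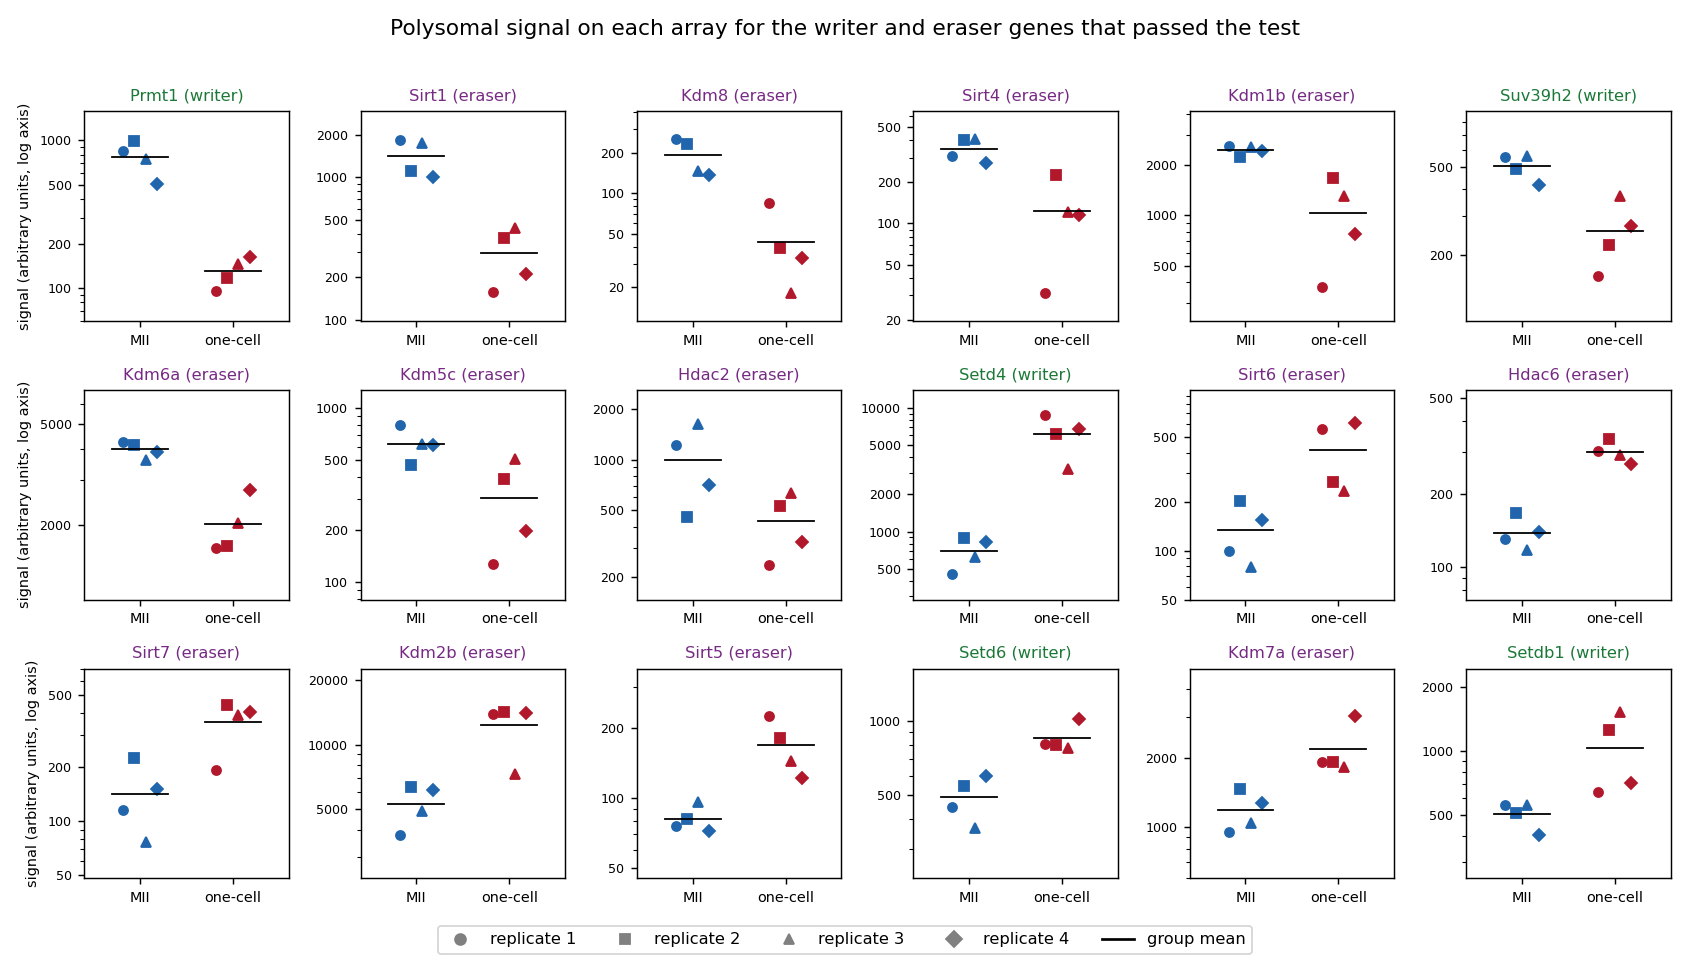
The signal on each of the 8 arrays (log axis, arbitrary units) is plotted for the 18 genes that passed, blue for MII oocytes and red for one-cell embryos, with a symbol for each replicate number and a line at the group mean (n = 4). The groups overlap for Hdac2, Kdm5c and Sirt7 and for no other gene shown; one-cell array 1, the circle, is the lowest embryo value for 8 of the 9 genes that fell.

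Of 15 measured demethylases, 4 were lower, 2 were higher and 9 did not pass. The share that passed, 40%, is near the 35.3% of all genes. Kdm1b (LSD2), an H3K4 demethylase that is needed in the growing oocyte for maternal imprints, had signals of 2598, 2231, 2539 and 2397 in MII oocytes and 377, 1656, 1303 and 776 in one-cell embryos. The 4 oocyte values were close together and all above the embryo values, of which array 1 was the lowest. The mean fell from 2442 ± 164 to 1028 ± 565 (SD, n = 4), a log2 change of -1.44 ± 0.39 (adjusted p = 0.0085). The call of Kdm1b was lost without both one-cell arrays 1 and 4 (-0.73 ± 0.26, adjusted p = 0.0559). Kdm1a (LSD1), the paralog that works with the CoREST complex, had signals of 1138, 2362, 1215 and 1372 and 727, 1264, 895 and 1159.5. One-cell arrays 2 and 4 lay inside the oocyte range, and neither the change of -0.55 ± 0.31 (adjusted p = 0.204) nor that of its other probe set, -0.62 ± 0.29 (adjusted p = 0.126), passed. Whether Kdm1a and Kdm1b differ in their change was not tested.

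Kdm6a (UTX), an H3K27 demethylase and a subunit of the Kmt2c and Kmt2d complexes, fell on both kept probe sets. On the brightest, signals were 4264, 4117, 3614 and 3869.7 in MII oocytes and 1616, 1651, 2035 and 2749 in one-cell embryos, with every embryo value below every oocyte value. The mean went from 3966 ± 286 to 2013 ± 526 (SD, n = 4), a change of -1.01 ± 0.30 (adjusted p = 0.0165). The second went from 3521, 2531, 3678 and 2685 to 876, 1338, 1683 and 1256, a change of -1.28 ± 0.30 (adjusted p = 0.00375). The call of Kdm6a was lost after quantile normalization (-0.52 ± 0.24, adjusted p = 0.132). Kdm6b (JMJD3), the other H3K27 demethylase, had 3725, 7597, 3164 and 5671 in MII oocytes and 2825, 4318, 2919.8 and 4156 in one-cell embryos. Those groups overlapped, and the change was -0.44 ± 0.36 (adjusted p = 0.393), against 0.38 ± 0.48 on its other probe set.

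Kdm8 (JMJD5), a JmjC domain protein, had signals of 253, 230.2, 147 and 136 in MII oocytes and 84.4, 38.9, 18 and 32.8 in one-cell embryos. The highest embryo value, on array 1, was below the lowest oocyte value, and the means were 192 ± 58.8 and 43.5 ± 28.6 (SD, n = 4). One-cell arrays 3 and 4 lay under their array medians, so the size of the fall is poorly set. The change was -2.01 ± 0.39 (adjusted p = 0.00082), and Kdm8 passed in all 20 alternative settings. Of the H3K4 demethylases of the Kdm5 family, Kdm5c had 793, 468, 624 and 616 in MII oocytes and 127, 390.2, 507 and 197 in one-cell embryos. One-cell array 3 lay above MII array 2, so the groups overlapped. The change was -1.17 ± 0.37 (adjusted p = 0.0234). A second probe set of Kdm5c also fell, with a change of -1.05 ± 0.32 (adjusted p = 0.0188), and 2 dimmer ones changed by 0.88 ± 0.39 (adjusted p = 0.0959) and 0.12 ± 0.41 (adjusted p = 0.868). The call of Kdm5c was lost without MII array 1, MII array 3, one-cell array 1 or one-cell array 4 (adjusted p = 0.074, 0.0531, 0.053 and 0.0769, changes of -1.17 to -0.84). Nor did it pass with each array centred on its median (adjusted p = 0.0704), without both one-cell arrays 1 and 4 (-0.46 ± 0.29, adjusted p = 0.281) and with its kept probe sets averaged (-0.30 ± 0.26, adjusted p = 0.417). Kdm5a and Kdm5b changed by 0.31 ± 0.40 and 0.48 ± 0.31 without passing, and Kdm5d was not kept.

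Kdm2b, an H3K36 demethylase that binds unmethylated CpG islands and brings a Polycomb complex there, rose on both probe sets. On the brightest, signals were 3804, 6380.3, 4901 and 6119.5 in MII oocytes and 13936, 14149, 7269 and 14110.2 in one-cell embryos. The groups did not overlap, but embryo array 3 lay much closer to the oocyte values than to the other 3 embryo arrays. The change was 1.20 ± 0.37 (adjusted p = 0.0211). The other probe set went from 1423, 1476, 1283 and 1471 to 2485, 5936, 4938 and 5815, with array 1 the lowest embryo value, a change of 1.68 ± 0.33 (adjusted p = 0.000936). The call of Kdm2b was lost without MII array 1, MII array 3 or one-cell array 4 (adjusted p = 0.092, 0.0715 and 0.066, changes of 1.05 to 1.17). Kdm2b also missed the threshold with each array centred on its median (adjusted p = 0.139) and with no filter on dim probe sets (adjusted p = 0.0782). Its paralog Kdm2a changed by 0.89 ± 0.38 on the brightest probe set and did not pass (adjusted p = 0.0895), nor did any of its 3 other kept probe sets.

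Kdm7a, which removes methyl groups from H3K9 and H3K27, gave opposite calls on 2 probe sets. The brightest had signals of 955, 1467, 1035 and 1266 in MII oocytes and 1911, 1917, 1827 and 3055 in one-cell embryos, a rise of 0.86 ± 0.29 with no overlap (adjusted p = 0.0329). Another had 619, 674, 905 and 487 in MII oocytes and 90.9, 132, 169 and 114 in one-cell embryos. All of those embryo values were well below the oocyte values, a log2 change of -2.32 ± 0.29 (adjusted p = 1.87e-05). The remaining 2 changed by -0.83 ± 0.35 (adjusted p = 0.079) and 0.39 ± 0.63 (adjusted p = 0.704). The call of Kdm7a was lost without MII array 1, MII array 3, MII array 4 or one-cell array 4 (adjusted p = 0.101, 0.0994, 0.0598 and 0.121, changes of 0.69 to 0.90). It was also lost with each array centred on its median (0.55 ± 0.41, adjusted p = 0.368), with no filter on dim probe sets (adjusted p = 0.0559), without a variance trend (adjusted p = 0.0515), without both one-cell arrays 1 and 4 (adjusted p = 0.0893) and with its kept probe sets averaged (-0.47 ± 0.23, adjusted p = 0.137). The direction of Kdm7a is not settled by these probe sets.

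The H3K9 demethylase Kdm3a had signals of 263, 322, 252 and 152 in MII oocytes and 8.3, 181, 164 and 179 in one-cell embryos. One-cell array 1 was far below the other 3, and the change of -1.27 ± 0.59 did not pass (adjusted p = 0.116). Its paralog Kdm3b changed by -0.20 ± 0.31 (adjusted p = 0.693) on the brightest probe set, while a dim one fell, with a change of -1.40 ± 0.49 (adjusted p = 0.0385). In the Kdm4 family, which acts on H3K9 and H3K36, Kdm4a changed by -0.07 ± 0.27 and Kdm4d by 0.82 ± 0.42. Neither passed, and Kdm4b and Kdm4c were not kept.

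Among 10 measured zinc-dependent deacetylases, Hdac6 was higher, Hdac2 was lower and 8 did not pass. Thus 20% passed, beside 35.3% of all genes. Hdac6, the cytoplasmic deacetylase of tubulin, had signals of 130.4, 168, 117 and 139 in MII oocytes and 300.4, 338, 289 and 267 in one-cell embryos. The groups were far apart for their spread, with means of 138 ± 21.5 and 299 ± 29.7 (SD, n = 4), and the rise was 1.06 ± 0.27 (adjusted p = 0.00563). The call of Hdac6 was lost after quantile normalization (0.64 ± 0.25, adjusted p = 0.0737) and with each array centred on its median (adjusted p = 0.113). Hdac2, a catalytic subunit of the Sin3, NuRD and CoREST complexes, had 1218, 458, 1623 and 706 in MII oocytes and 235, 529.8, 632 and 326 in one-cell embryos. Oocyte arrays 2 and 4 were the low ones, and array 2 lay within the embryo range. The change was -1.14 ± 0.40 (adjusted p = 0.0367), while the other kept probe set changed by -0.91 ± 0.41 and missed the threshold (adjusted p = 0.102). The call of Hdac2 was lost without MII array 1, MII array 3, one-cell array 1 or one-cell array 4 (adjusted p = 0.11, 0.141, 0.0883 and 0.0985, changes of -1.04 to -0.86). Nor did it pass with each array centred on its median (adjusted p = 0.0832), with no filter on dim probe sets (adjusted p = 0.0556), without a variance trend (adjusted p = 0.069), without both one-cell arrays 1 and 4 (-0.62 ± 0.42, adjusted p = 0.314) and with its kept probe sets averaged (adjusted p = 0.0544). Hdac1, which shares these complexes with Hdac2, had 64.6, 69.5, 56 and 22.2 and 30.8, 74.4, 91.4 and 98.9. Its groups overlapped, with a change of 0.40 ± 0.42 (adjusted p = 0.534). Hdac3, the enzyme of the NCoR and SMRT corepressors, changed by 0.18 ± 0.33 (adjusted p = 0.737), and Hdac8 was not kept. The class II and IV enzymes other than Hdac6 did not pass, with changes from -0.85 (Hdac9, adjusted p = 0.0848) to 0.71 (Hdac11, adjusted p = 0.429).

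Of the sirtuins, 5 of 6 measured genes (83.3%) passed, 3 as higher and 2 as lower, where 35.3% of all genes passed. No test compares the sirtuins with other genes. Sirt1, the nuclear deacetylase best known for linking NAD to chromatin and p53, had signals of 1823, 1105, 1743 and 1012 in MII oocytes and 156, 374, 443 and 209 in one-cell embryos. Every oocyte value was far above the highest embryo value. The mean fell from 1421 ± 421 to 295 ± 135 (SD, n = 4), 4.81-fold, and the log2 change was -2.29 ± 0.35 (adjusted p = 9.8e-05). Sirt4, a mitochondrial sirtuin, had 308, 404, 407 and 272 in MII oocytes and 31.3, 224, 121 and 114 in one-cell embryos. All embryo values were lower, that of array 1 by far the lowest, and the change was -1.66 ± 0.42 (adjusted p = 0.00574). Sirt1 and Sirt4 passed in all 20 alternative settings, Sirt4 with -1.01 ± 0.32, adjusted p = 0.03 when one-cell arrays 1 and 4 were both left out.

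Sirt6 and Sirt7, nuclear sirtuins that act on H3K9 and H3K18 acetylation, were higher in embryos. Sirt6 had signals of 100.2, 202, 79.9 and 156 in MII oocytes and 559.7, 265, 233 and 611 in one-cell embryos. Embryo arrays 2 and 3 lay just above the highest oocyte array, and the rise was 1.52 ± 0.37 (adjusted p = 0.00473). The call of Sirt6 was lost without both one-cell arrays 1 and 4 (0.92 ± 0.35, adjusted p = 0.0688). Sirt7 had 116, 224, 77.1 and 152 and 194, 440.0, 390.0 and 404. Embryo array 1 lay below MII array 2, so the groups overlapped, and the rise was 1.30 ± 0.35 (adjusted p = 0.00921). The call of Sirt7 was lost after quantile normalization (0.81 ± 0.39, adjusted p = 0.146) and with each array centred on its median (adjusted p = 0.15). Sirt5, a mitochondrial enzyme that removes succinyl groups, had 75.9, 81, 95.9 and 72.4 in MII oocytes and 224, 181, 145 and 122 in one-cell embryos. The groups did not overlap, with a rise of 0.94 ± 0.30 (adjusted p = 0.0242), and its other kept probe set changed by 1.11 ± 0.47 (adjusted p = 0.0851). The call of Sirt5 was lost without MII array 1, MII array 4 or one-cell array 2 (adjusted p = 0.0615, 0.0659 and 0.0619, changes of 0.89 to 0.91). The test was also missed after quantile normalization (0.48 ± 0.26, adjusted p = 0.193) and with each array centred on its median (0.62 ± 0.28, adjusted p = 0.123). Sirt3 changed by 0.63 ± 0.63 without passing (adjusted p = 0.511). The single probe set of Sirt2, a mostly cytoplasmic tubulin deacetylase, was not kept, with 8.6, 14.6, 6.0 and 11.1 in MII oocytes and 58.5, 11.9, 10.5 and 9.9 in one-cell embryos. The count of higher sirtuins depended on the scaling, with 3 in the deposited values, 1 with quantile normalization and 1 with centring, while 2 were lower in each.

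One-cell array 1 moved with the falls. It was the lowest of the 4 embryo arrays for 8 of the 9 members that fell and for 70.4% of all 1828 genes that fell. Whatever the call, it was the lowest for 26 of the 54 measured members and for 34.7% of all 12359 genes. It was also the highest for 44.2% of all genes. Among the 9 members that rose it was the lowest for 2 and the highest for 2. The direction of all 18 calls stayed the same without this array, and 16 of the 18 still passed, Kdm5c and Hdac2 being the exceptions. Its part in the sizes was not tested further.

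Several genes had probe sets that did not give the same answer. Of the 93 kept probe sets, 13 were higher and 17 lower, 32.3% in all against 32.1% of all kept probe sets (19.3% higher and 12.8% lower). The groups did not overlap in 29, or 31.2%, against 32.6%. Among the 25 genes with more than 1 kept probe set, 14 had at least 1 call. All kept probe sets were called the same way for 3 of these genes (Kdm2b, Kdm6a and Setdb1), though the second one of Setdb1 was kept through the embryo arrays alone. Some but not all were called for 10, and only Kdm7a was called in both directions. For Kmt2c, Prmt2, Setd1b and Kdm3b a dimmer probe set passed where the brightest did not, that of Kdm3b being above the array median on 1 of the 4 one-cell arrays. The remaining 29 genes, among them Prmt1, Sirt1, Sirt4, Sirt6, Sirt7, Kdm1b, Kdm8 and Hdac6, rest on 1 kept probe set each. The probe sets used here carry no sequence or position, so which part of each transcript they read was not analysed. By the array maker's naming, those ending in _s_at, such as the brightest of Hdac2, Kdm2b and Sirt5, can share probes with other transcripts, and those ending in _x_at can cross-hybridize.

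**Figure D3:**
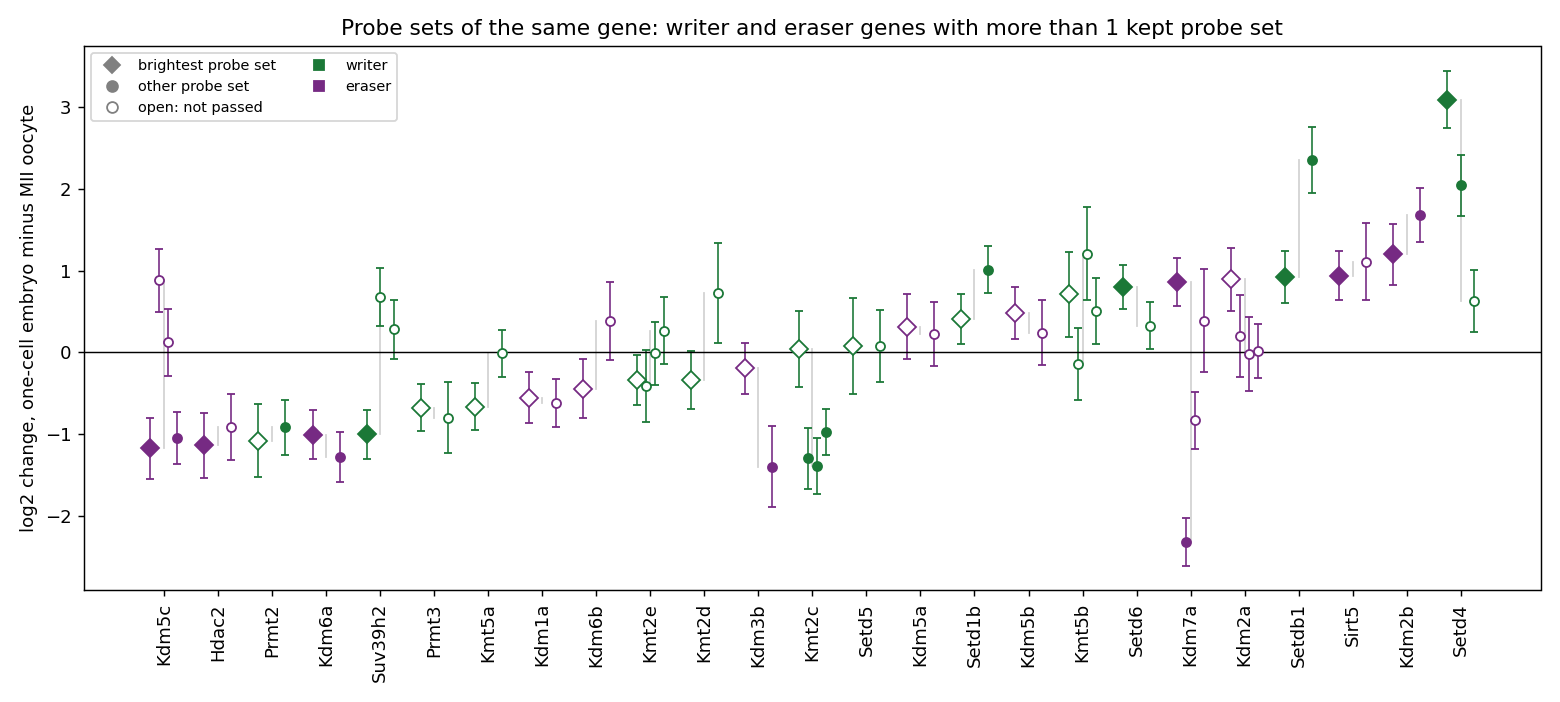
The log2 change of every kept probe set is plotted for the 25 genes with more than 1, with the limma SE as bars (4 arrays per group). Diamonds are the brightest probe set of a gene, circles the others, and filled symbols passed the test, in green for writers and purple for erasers; Kdm7a spans 0.86 to -2.32, while Kdm6a, Kdm2b and Setdb1 have all symbols filled on the same side of zero.

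The other 61 probe sets of the members were dim. Their means over 8 arrays ran from 2.01 to 36.9 with a median of 16.4, and 30 of them were above the array median on no array. The filter thus left 11 genes out of the counts above: the writers Ehmt2, Setd7, Prmt6, Prmt7, Prmt8 and Prmt9 and the erasers Hdac8, Kdm4b, Kdm4c, Kdm5d and Sirt2. A fit with no filter held all 65 genes and gave 7 higher and 8 lower. With no detection calls in the table, a low signal does not show that an mRNA is missing from polysomes.

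Partners of these enzymes and the opposing acetyltransferases were read from 7 lists drawn up with earlier results of these data known. Over all genes measured, 20.6% were higher and 14.8% lower. Of 14 subunits of the COMPASS complexes, which hold the H3K4 methyltransferases, 5 were lower (35.7%) and 2 higher (14.3%), a median change of -0.84 beside 0.17 for all genes. Men1, which tethers Kmt2a and Kmt2b, rose by 2.05 ± 0.36 (adjusted p = 0.000367). Paxip1, a subunit of the Kmt2c and Kmt2d complexes, fell, with a change of -1.54 ± 0.34 (adjusted p = 0.00249), as did Bod1l, known from the Setd1 complexes, with -1.70 ± 0.32 (adjusted p = 0.000703). On single arrays Men1 lay at 29.6, 26.3, 32 and 49.1 on the MII arrays and 301, 115, 129 and 187 on the one-cell arrays, which makes its oocyte level dim. Among 17 other histone methyltransferases, 5 were higher (29.4%) and 1 lower (5.88%), with a median of 0.49. The H3K36 methyltransferase Nsd1 rose by 2.13 ± 0.29 (adjusted p = 3.11e-05), and averaged over its 3 kept probe sets by 1.21 ± 0.26, adjusted p = 0.00246. Smyd4 rose by 2.19 ± 0.48 (adjusted p = 0.0022) from oocyte signals of 6.9, 30.9, 19.8 and 51.3, under the array median on 3 of 4 MII arrays, so the size is poorly set. Averaged over its 2 kept probe sets it changed by 1.40 ± 0.35, adjusted p = 0.0064. Smyd3 fell on its brightest probe set, with a change of -2.09 ± 0.36 (adjusted p = 0.000338). That call was lost with its 2 kept probe sets averaged (-0.57 ± 0.27, adjusted p = 0.124). For that average the other probe set must have changed upward, so the 2 disagree in direction.

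Of 14 partners and readers of H3K9 methylation, 4 were higher (28.6%) and 1 lower (7.14%), with a median of -0.05. Atf7ip, the protein that stabilizes Setdb1 in the nucleus, rose from 80.5, 174, 105 and 154 in MII oocytes to 1618, 1341, 2021 and 1811 in one-cell embryos. The lowest embryo value was several times the highest oocyte value, and the rise was 3.67 ± 0.29 (adjusted p = 2.9e-07). Its paralog Atf7ip2 rose by 1.98 ± 0.38 (adjusted p = 0.00081) from oocyte signals of 24.2, 25.5, 16.3 and 34.4, under the array median on 3 of 4 MII arrays, so its size too is poorly set. Morc2a, which works with the HUSH silencing complex, rose by 2.02 ± 0.30 (adjusted p = 7.27e-05). With both its probe sets averaged, Atf7ip changed by 1.41 ± 0.23, adjusted p = 0.000294. For the average to lie there, the other probe set must have changed downward. The 2 probe sets of Atf7ip thus disagree in direction, and its rise rests on the brightest. Of 11 other demethylases and JmjC genes, 2 were higher (18.2%), Phf8 and Jmjd8. Phf8, a demethylase of H3K9 and H4K20, rose by 1.84 ± 0.30 (adjusted p = 0.000175), and with its 3 kept probe sets averaged changed by 0.67 ± 0.25, adjusted p = 0.0512. Jmjd8 rose by 1.23 ± 0.38 (adjusted p = 0.0212). The call of Jmjd8 was lost without MII array 2 or one-cell array 4 (adjusted p = 0.0722 and 0.0513, changes of 0.94 to 1.23). Nor did it pass after quantile normalization (adjusted p = 0.114), with each array centred on its median (adjusted p = 0.0849), with no filter on dim probe sets (adjusted p = 0.052) and without both one-cell arrays 1 and 4 (adjusted p = 0.0685).

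Of 33 subunits of deacetylase complexes, 9 were lower (27.3%) and 7 higher (21.2%), with a median of -0.26. Ing1, a reader of methylated H3K4 in the Sin3 complex, fell, with a change of -1.87 ± 0.30 (adjusted p = 0.000163). In the same complex Sap130 rose by 3.02 ± 0.27 (adjusted p = 7.25e-07), from 101, 166, 101 and 116 to 993, 950.3, 1121 and 1065. Sap30bp, which binds Sap30, rose by 4.47 ± 0.39 (adjusted p = 6.46e-07) from oocyte signals of 7.3, 19.8, 9.1 and 5.3. Those signals all lay under their array medians, so Sap30bp was kept through the embryo arrays alone. Its fold is poorly set, and its place among the 7 higher subunits carries little weight. Of 6 partners of arginine methylation, 3 were higher and 2 lower, too few to read as shares. Btg1, known for binding Prmt1, fell from 854, 1423, 1216 and 1739 to 53.9, 113, 164 and 83, a change of -3.59 ± 0.34 (adjusted p = 1.19e-06). Clns1a, a substrate adaptor of Prmt5, rose by 1.97 ± 0.36 (adjusted p = 0.00057), and averaged over its 3 kept probe sets by 1.14 ± 0.21, adjusted p = 0.000698. Tdrd3, a reader of methylated arginine, rose by 2.11 ± 0.36 (adjusted p = 0.000274), a call lost with its kept probe sets averaged (0.20 ± 0.27, adjusted p = 0.631).

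Of 17 acetyltransferases known to act on histones, 5 were lower (29.4%) and 3 higher (17.6%), with a median of -0.45. Crebbp and Ncoa2, both counted as lower, did not pass with their kept probe sets averaged. Their averages changed by -0.06 and -0.60 (limma adjusted p = 0.88 and 0.0712), while Hat1, Naa50 and Naa40 still passed as lower. Kat14, a subunit of the ATAC complex, rose from 797, 1275, 745 and 1311 in MII oocytes to 10686, 10309.7, 8237 and 12316 in one-cell embryos, by 3.35 ± 0.32 (adjusted p = 1.42e-06), and averaged over its 3 kept probe sets by 2.10 ± 0.24, adjusted p = 1.9e-05. Hat1, which acetylates newly made histone H4, fell from 1006, 566, 823 and 618 to 83.7, 179, 221 and 107, with no overlap, a change of -2.33 ± 0.33 (adjusted p = 5.14e-05). Naa50 and Naa40, both among the lower genes, are N-terminal acetyltransferases, whose mark Hdac and Sirt enzymes do not remove. Naa50 fell, with a change of -1.43 ± 0.32 (adjusted p = 0.00275), and averaged over its 3 kept probe sets with -0.83 ± 0.25, adjusted p = 0.0181. The number of lower acetyltransferases dropped to 3 when MII array 2, MII array 3 or one-cell array 4 was left out. For deacetylase subunits, leaving out MII array 4 gave 5 lower. These lists are described by their counts alone, and nothing here sets them apart from other genes.

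**Figure D4:**
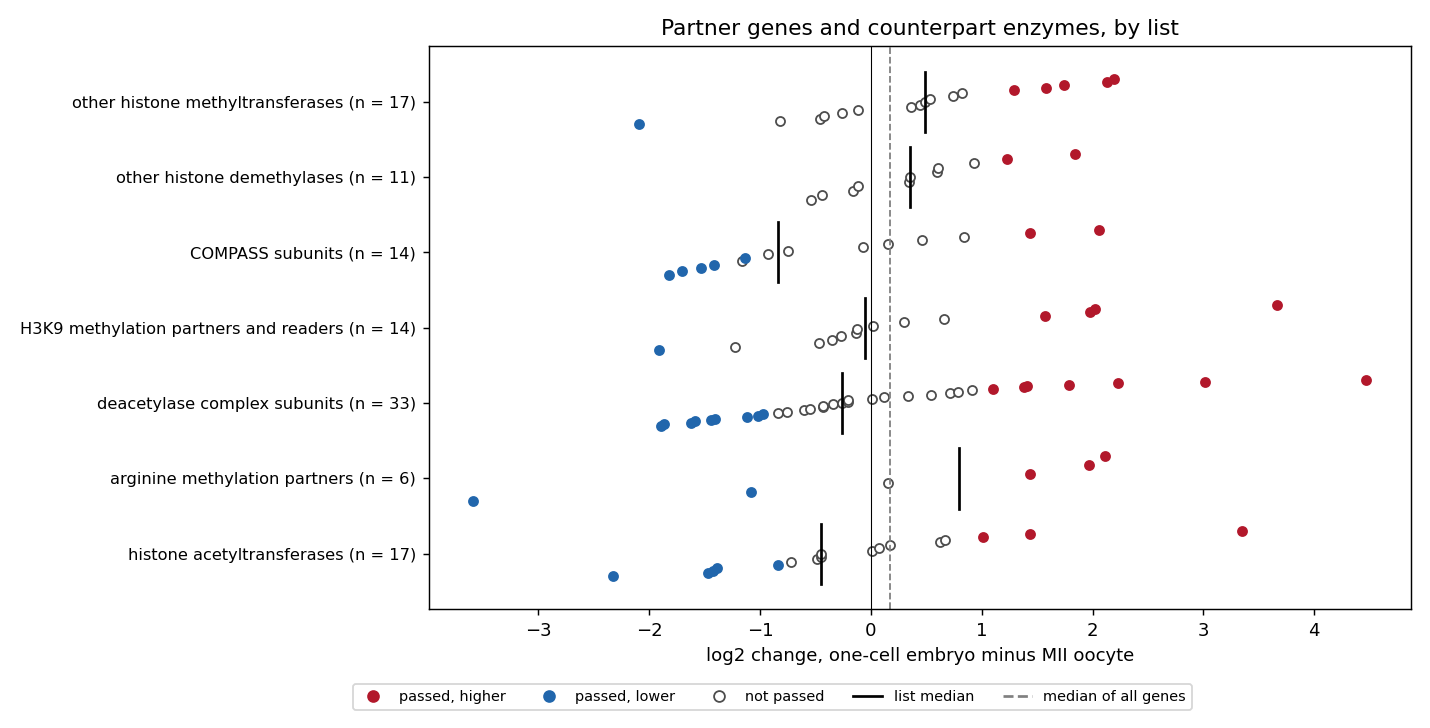
Each point is the log2 change of the brightest kept probe set of a gene on 1 of the 7 partner lists, red for passed as higher, blue for passed as lower and open for not passed; black bars are list medians and the dashed line is the median of all genes at 0.17. The COMPASS list has the lowest median at -0.84, and every list except the other demethylases holds calls in both directions.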

How the data were processed

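The values deposited by the authors are linear intensities in arbitrary units, 1 for each probe set on each 1-colour array (biotin label, per the labels' protocols). From the values, the mean without the lowest and highest 2% was 150.0 on each of the 8 arrays, so intensities were used as deposited. Software, scaling method and genome build: not given in the sources used here. No coordinates are printed. The tests left out 64 control probe sets. Members were named by GEO's platform annotation, and all their symbols are current in the RefSeq gene table.

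An offset of 10 was added before log2. The contrast was fitted over 23336 kept probe sets with limma 3.58.1 in R 4.3.3 (lmFit, eBayes with a variance trend, two-sided), tested on simulated data. For 10 array measures, an exact permutation test (two-sided) gave a smallest p of 0.0286 (adjusted p = 0.286), and this design can give none lower. With 4 arrays per group, their number limits the precision. The labels call the batches independent replicates.

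The members and gene lists were chosen with earlier results of these data known. Members that passed with groups not overlapping are named with every array's value, together with 8 textbook pairs, the 3 brightest members that did not pass, and up to 3 genes of each partner list with the smallest p. The remaining members named, Naa40, Crebbp, Ncoa2, Akap4, Prm2, Cyp11a1, Izumo1r, Tle6, Mos and Gdf9 were named after their values were seen. Alternatives covered the scaling between arrays, the offset, the filter, the variance model, array weights, the replicate number as a block, arrays left out, averaged probe sets and the threshold.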

Additional observations from a re-analysis of the deposited data

Results flagged for a closer look

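In 96 groups of 4 arrays (48 named genes in both stages), 6 arrays stood apart from the other 3 by more than Dixon's 95% critical value for the ratio of gap to range, taken on the log2 scale. Chance alone flags about 1 group in 20. For Kdm2b, one-cell array 3 (7269) lay below the other embryo arrays (13936 to 14149), with a ratio of 0.977. For Kdm7a, one-cell array 4 (3055) lay above the others (1827 to 1917), with a ratio of 0.906. For Setd6, one-cell array 4 (1025) lay above the others (777 to 806), with a ratio of 0.866. For Sirt7, one-cell array 1 (194) lay below the others (390.0 to 440.0), with a ratio of 0.851. For Jmjd8, MII array 2 (12.3) lay below the others (38.0 to 42.4), with a ratio of 0.897. For Tdrd3, one-cell array 3 (2412) lay above the others (724 to 889), with a ratio of 0.83.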

How the results depend on the processing

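The 18 member calls kept their direction in every fit by the same probe set. They all passed with an offset of 1 or 50, with array weights, with a filter at the 75th percentile and with the replicate number as a block, which gave 9 higher and 10 lower members and 7209 calls over all probe sets (7493 without it). Same-numbered arrays of the groups did not deviate together (correlations of -0.16, -0.11, 0.14 and 0.04), so the numbers were not taken as pairs. Centring each array on its median left 2 higher members, 17 called member probe sets and medians of -0.41 for writers and -0.10 for erasers. An adjusted p under 0.01 left 4 higher and 5 lower members and 15 member probe sets. Without both one-cell arrays 1 and 4 there were 5 lower members, and the medians were -0.34 for writers and -0.064 for erasers. The eraser median was -0.062 after quantile normalization and -0.13 with the 75th percentile filter. Leaving out each array in turn gave 4 to 10 higher members and 7 to 12 lower ones, 20 to 30 called member probe sets, and medians of -0.22 to -0.01 for writers and 0.03 to 0.32 for erasers. Averaging probe sets turned the sign of Kdm7a (-0.47), Kmt2c (-0.90) and Kmt2d (from -0.33 to 0.20, neither passing), and 13 of the 18 calls remained. Setdb1 is among those 13, with an average that takes in a probe set kept through the embryo arrays alone. The cause of these shifts was not tested. Signal near the array median limits what dim members can show, and without detection calls no background level is known.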
